A study of Mus musculus with 5 samples.

Results

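Cells rich in transcripts of Cxcl13 or Procr were described among tdTomato-labelled mesenchymal cells of mouse hindlimb muscle at days 2 and 4 after notexin, a snake venom phospholipase that destroys muscle fibres. A cell was a member when it held at least 3 unique molecular identifiers (UMIs, each standing for 1 captured transcript) of Cxcl13 and Procr together and these made up at least 4 of every 10000 of its UMIs. Cells with at least 5 summed UMIs of 4 tendon genes (Tnmd, Fmod, Kera, Chad) or of 4 mural cell genes (Rgs5, Kcnj8, Abcc9, Higd1b) were set aside first. Members were 609 of 2407 remaining cells at day 2 (25.3%, 95% interval 23.6 to 27.1) and 655 of 3810 at day 4 (17.2%, 16.0 to 18.4), or 1264 of 6217 in all, and the whole series held 17085 cells that passed the quality limits. The other 1798 and 3155 cells of the same libraries are called the other cells below.

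Every library came from C57BL/6J mice of genotype Hic1CreERT2/CreERT2;Rosa26LSLtdTomato/+, in which tamoxifen turns on tdTomato in cells that express Hic1, a transcriptional repressor of mesenchymal progenitors. From 8 weeks of age the mice received 2.5 mg of tamoxifen in 100 uL of sunflower oil a day for 5 days and then 10 days without it. Sorted labelled cells were captured with a droplet method that reads the 3' ends of transcripts, in 5 libraries: quiescent muscle and days 1, 2, 4 and 14 after notexin. Because both Hic1 alleles carry the recombinase in all groups, no group has an unmodified Hic1 locus, and the label marks past as well as present expression. Each group was 1 library and the number of animals in it is not given in the sources used here, so no p-value is given, each difference compares 2 libraries or 2 sets of cells in 1 library, and intervals cover counting error only.

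Cxcl13 is a chemokine that stromal cells of lymphoid follicles make and that draws B cells through the receptor Cxcr5. Procr encodes the endothelial protein C receptor, which holds protein C at the cell surface so that thrombin bound to thrombomodulin can activate it, a brake on clotting, and it is also used as a surface marker of progenitor cells. In muscle and other organs, fibroblasts of the tissue sheaths and vessel adventitia that express Pi16 and Dpp4 are regarded as a reserve of progenitors, while other fibroblasts take up matrix production after injury.

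The stretches before the RefSeq starts of both genes are shown because these genes chose the cells, and the 2 motifs searched fall differently in them. They are from build GRCm38.p6, plus strand, and stop before the annotated gene. Capitals mark TATAAA, the core of a TATA box, or TGANTCA, the core of an AP-1 site, searched on both strands (the latter reads the same on both). TATAAA is held by 12.4% and TGANTCA by 6.75% of all 32851 RefSeq stretches of 250 bases. The Cxcl13 stretch, chr5:95956689-95956938, has TATAAA 46 bases before the start. The Procr stretch, chr2:155750967-155751116, is cut to 150 bases, because the annotated gene begins before the RefSeq start at 155751217. Its TGANTCA lies 154 bases before that start, so the printed letters end short of it.
Cxcl13: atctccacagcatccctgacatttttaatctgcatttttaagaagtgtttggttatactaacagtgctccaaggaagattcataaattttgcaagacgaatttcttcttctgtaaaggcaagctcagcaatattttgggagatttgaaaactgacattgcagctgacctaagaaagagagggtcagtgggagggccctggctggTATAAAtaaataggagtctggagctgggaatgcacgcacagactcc
Procr: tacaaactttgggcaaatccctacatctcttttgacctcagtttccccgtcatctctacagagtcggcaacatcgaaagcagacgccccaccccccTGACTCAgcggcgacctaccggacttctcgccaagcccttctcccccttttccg
A match describes letters only, and no binding was measured here.

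Most members were chosen by Procr, and Cxcl13 marked a minority of them. At day 2, 376 of 609 members (61.7%) held no Cxcl13 UMI, 63 (10.3%) held 1 or 2 and 170 (27.9%) held at least 3. At day 4 the numbers were 502 of 655 (76.6%), 78 (11.9%) and 75 (11.5%). Only 21 members (3.45%) at day 2 and 9 (1.37%) at day 4 had no Procr UMI. A label of Cxcl13 and Procr progenitors therefore fits both genes at once for 212 cells (34.8%) at day 2 and 144 (22.0%) at day 4, and the name Cxcl13/Procr-rich cells is used here for all members. Per member, Cxcl13 ran from 0 through a median of 0 to 189 UMIs at day 2 and from 0 through 0 to 54 at day 4, while Procr ran from 0 through 7 to 32 and from 0 through 4 to 33. Summed over members, in counts per 1000000 UMIs (CPM), Cxcl13 was 738.8 at day 2 and 199.7 at day 4, and Procr was 962 and 831. Both genes define the members, so these levels describe the rule.

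**Figure D1:**
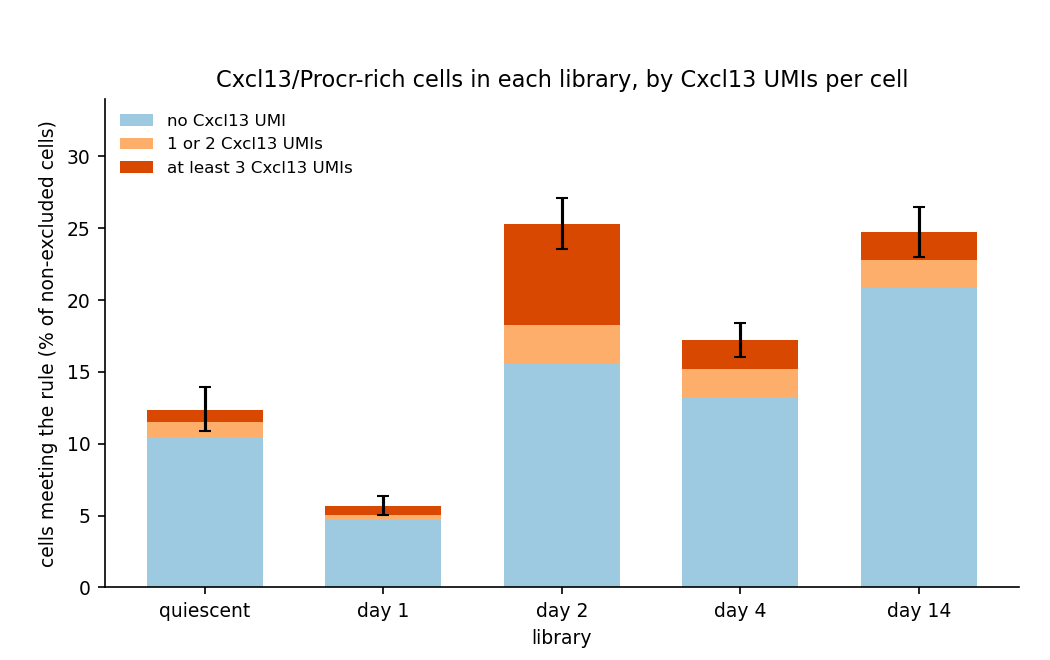
Share of non-excluded cells that met the Cxcl13/Procr rule in each of the 5 libraries (bars, percent), divided by how many Cxcl13 UMIs a cell held, with Clopper-Pearson 95% intervals on the whole bar (counting error only). Day 2 has the highest bar at 25.3% and the widest band of cells with at least 3 Cxcl13 UMIs, while cells without a Cxcl13 UMI fill most of every bar.

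At matched depth Cxcl13 was found more often in cells with Procr than in cells without it. With every non-excluded cell thinned to 2500 UMIs, Cxcl13 was found in 17.5% of 760 cells with Procr (14.9 to 20.4) and in 4.25% of 1647 cells without it at day 2. At day 4 the shares were 8.92% of 1009 and 1.90% of 2738 cells. Members were shallower than other cells, with a median of 7511 against 13400 UMIs at day 2 and 5684 against 7554 at day 4. Cells near the limit differed by less than the whole groups did in Pi16 and by more in Plac8 at day 2. At day 2 the 54 members at 4 to 5 per 10000 had 1244 CPM of Pi16 and the 38 cells with at least 3 UMIs at 3 to 4 per 10000 had 830, against 96.0 in cells with no UMI of either gene. Plac8 in the same cells was at 551 CPM just inside and 91.3 just outside. At day 4 the 58 and 37 cells had 6172 and 4994 CPM of Pi16, against 599, and 392 and 361 of Plac8. The limit therefore passes through a gradient of Pi16, with cells on both sides of it.

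Members held transcripts of the label and of progenitor markers, as the other cells did. All cells were sorted for tdTomato, so its transcript does not test their identity. Pdgfra, the receptor that marks mesenchymal progenitors, was at 192 CPM in members and 221 in other cells at day 2 and at 160 and 194 at day 4. The tdTomato transcript was at 868 against 721 CPM and at 995 against 932. Hic1 itself was low, at 21.6 against 20.8 CPM and at 19.5 against 32.7. Cd34, a surface sialomucin of progenitors, was at 1043 against 317 CPM at day 2 (3.29-fold, 95% interval 3.18 to 3.41) and 1840 against 719 at day 4 (2.56-fold). Ly6a, known as Sca-1, was at 5319 against 2519 CPM (2.11-fold) and 4455 against 2279 (1.96-fold, short of the 2-fold limit). Of the 11 genes of the progenitor list, 4 were higher in members and 0 lower at day 2 (median log2 ratio 0.54). At day 4, 2 were higher and 2 lower (median 0.09). Members thus had more Cd34 and Ly6a than other cells but without a shift of the whole list at day 4.

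Markers of cells that a sort could carry over were low. Summed over 16 leukocyte genes, members had 34.2 CPM and other cells 12.95 at day 2, with 7 of the 16 at 0 in members. At day 4 the sums were 30.5 and 24.2, with 3 at 0. Most of the day 2 sum in members was Ly6c2, at 25.2 against 6.83 CPM. At least 2 leukocyte UMIs were held by 4.93% of members and 2.225% of other cells at day 2, and by 1.68% and 2.60% at day 4. Endothelial genes, of interest because Procr and thrombomodulin are known from endothelium, summed to 15.7 against 20.3 CPM and 11.5 against 39.4, with 7 and 6 of 12 genes at 0 in members. Schwann, myogenic, tendon and mural lists were lower in members than in other cells on both days. Mesothelial and epithelial genes were at 14.95 against 6.38 CPM and 67.6 against 19.5, with 9 and 10 of 12 genes at 0 in members, and nearly all of the day 4 sum was Krt19, a keratin, at 66.3 against 15.9. The part of these transcripts in the results was not tested.

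Of the 4 further genes that the definition of these cells names, Sfrp4 and Il18 were at least 2-fold higher in members on both days, Plac8 at day 2 and Figf at day 4. Over all genes, 330 of 5450 tested were higher in members at day 2 (6.06%) and 490 lower (8.99%), by at least 2-fold and with at least 20 CPM in the higher set. At day 4, 355 of 5587 were higher (6.35%) and 440 lower (7.88%). These shares are the ones to set beside every count of list genes called in members against other cells. The 4 genes were proposed from these data, so their values are a description.

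Sfrp4, a secreted Wnt antagonist, was at 217 CPM in members and 35.9 in other cells at day 2 (6.05-fold, 5.54 to 6.60) and at 526 and 167 at day 4 (3.14-fold). Il18, a cytokine of the interleukin 1 family, was at 152 and 32.0 CPM (4.74-fold) and at 162 and 36.1 (4.47-fold), the steadiest of the 4. Plac8, a small cysteine-rich protein, was at 299 and 74.3 CPM (4.02-fold) at day 2 and at 342 and 240 (1.42-fold) at day 4. Figf, which encodes the lymphatic growth factor VEGF-D, was at 293 and 172 CPM (1.71-fold) and at 115 and 37.2 (3.08-fold). Thinned to 2500 UMIs, Il18 was in 27.3% of members, 8.68% of other cells and 9.30% of the 43 excluded mural cells at day 2, and in 32.6%, 9.13% and 2.80% at day 4 (107 mural cells). Sfrp4 was in 25.1%, 5.90% and 4.65% and then in 53.9%, 18.8% and 4.67%. Median depths before thinning were 5816 and 4067 UMIs in mural cells, which are given for comparison only, since some of them held these genes.

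Pi16, which encodes a secreted peptidase inhibitor, had the highest ratio of all ranked genes at day 2. It was at 2733 CPM in members and 160 in other cells (17.1-fold, 16.6 to 17.7) and was found in 540 members (88.7%), and at day 4 at 8160 and 1216 CPM (6.71-fold), in 635 members. Of the list of adventitial progenitor genes that Pi16 heads, 19 of 20 tested were higher at day 2 and 19 of 21 at day 4, none lower, with median log2 ratios of 2.09 and 2.13 against -0.17 and -0.15 over all genes tested. Dpp4, a surface peptidase, was at 162 against 15.9 CPM at day 2 (10.2-fold, 9.05 to 11.5) and 272 against 49.1 at day 4 (5.54-fold). Sema3c, a secreted guidance cue, was at 332 against 42.1 CPM (7.89-fold) and 620 against 135 (4.60-fold). Clec3b, which encodes the plasminogen-binding protein tetranectin, was at 2988 against 437 CPM (6.84-fold) and 5627 against 1604 (3.51-fold). All members but 10 at day 2 and 1 at day 4 had a Clec3b UMI, whereas most had no Cxcl13 UMI. The share of other cells with Clec3b is not given here, so its detection does not set members apart.

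**Figure D2:**
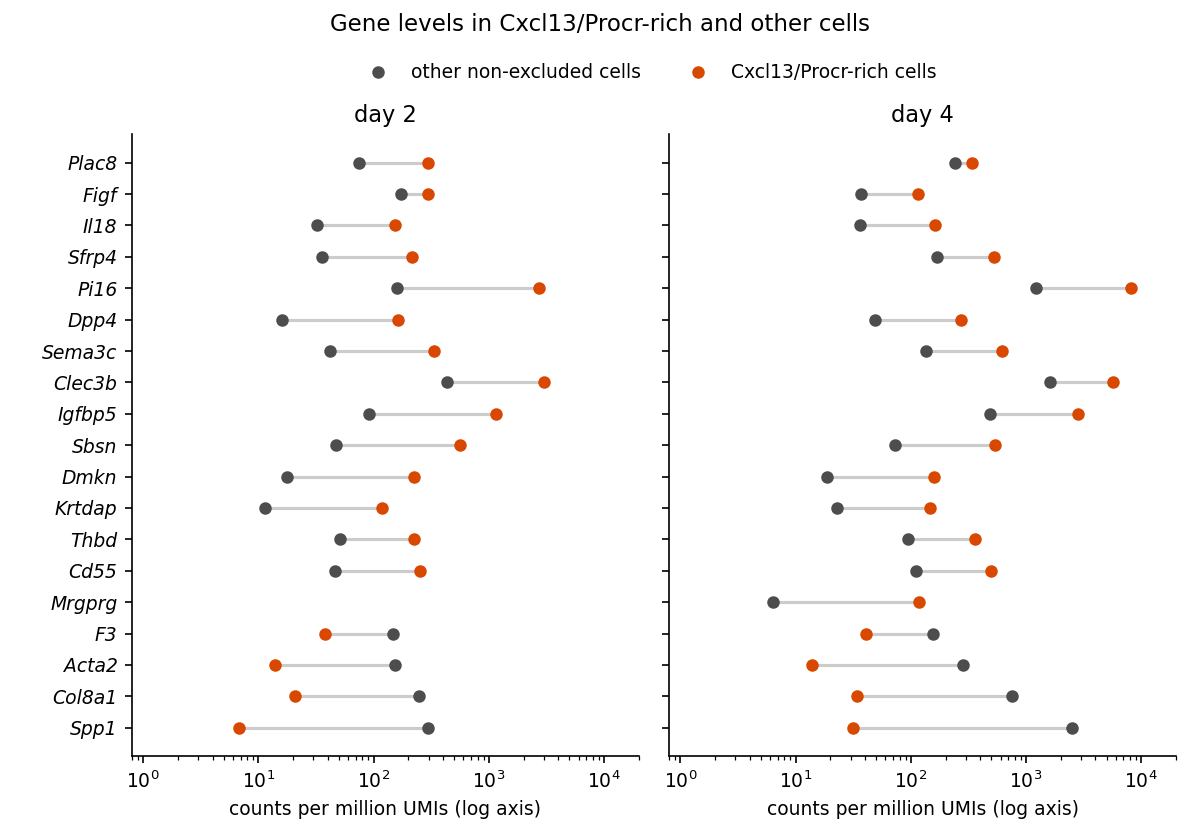
Level of 19 named genes in Cxcl13/Procr-rich cells (orange) and other non-excluded cells (grey) at day 2 and day 4, in CPM on a log axis, 1 library a day with no error bar. Genes of the adventitial programme sit to the right in members on both days and Spp1, Col8a1, Acta2 and F3 sit to the left, and Mrgprg is drawn only at day 4.

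Of the insulin-like growth factor binding proteins, which hold growth factor in the matrix, several were higher in members and Igfbp7 was lower at day 4. Igfbp5 was at 1159 against 91.2 CPM at day 2 (12.7-fold) and 2823 against 490 at day 4 (5.76-fold), and Igfbp6 at 2744 against 608 (4.52-fold) and 7005 against 1831 (3.83-fold). Igfbp4 was higher at day 2 alone, at 409 against 111 CPM (3.67-fold), with 414 against 334 at day 4. Igfbp7 was at 41.9 against 53.6 CPM and at 36.6 against 120 (3.29-fold lower). Of 7 tested genes of this axis 3 were higher and none lower at day 2, and 2 higher and 1 lower at day 4. Over all genes tested, 6.06% were higher and 8.99% lower at day 2, and 6.35% and 7.88% at day 4. Smaller genes near the top were Car8, a carbonic anhydrase relative, at 51.7 against 4.91 CPM (10.5-fold) and 152 against 17.3 (8.80-fold), and Mgll, which breaks down monoacylglycerols, at 76.5 against 8.04 (9.52-fold) and 116 against 15.8 (7.33-fold). Efhd1, a calcium-binding mitochondrial protein, was 8.05-fold and 6.04-fold higher, and Serpina3c, a protease inhibitor of a family of similar copies whose counts are less certain, 7.46-fold and 6.67-fold.

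Sbsn, Dmkn and Krtdap, secreted proteins known from differentiating epidermis, were all among the 15 highest genes on both days. Sbsn was at 567 CPM in members and 47.1 in other cells at day 2 (12.04-fold, 11.3 to 12.9) and at 539 and 72.9 at day 4 (7.40-fold). Dmkn was at 225 and 17.7 CPM (12.7-fold) and at 158 and 18.9 (8.38-fold), and Krtdap at 118 and 11.5 (10.2-fold) and at 145 and 22.8 (6.38-fold). They are neighbours on the plus strand of chromosome 7 (GENCODE M21, GRCm38): Sbsn from 30751471 to 30756134, Dmkn from 30763756 to 30781063 and Krtdap from 30787896 to 30791097, within 39627 bases. A further 10 protein-coding genes lie within 100 kb, of which 1, Tmem147, passed the minimum level, with log2 ratios of -0.23 and -0.16. Their start stretches are shown because the 3 genes were high in the same cells, and each holds TGANTCA. It lies 119 bases before the start in Sbsn (chr7:30751221-30751470) and 89 in Dmkn (chr7:30763506-30763755, the first of 3 listed starts). In Krtdap (chr7:30787655-30787895) it lies 81 bases before the start, and TATAAA lies 30 bases before it. The Krtdap stretch is cut to 241 bases at the annotated gene, and its RefSeq start is at 30787905.
Sbsn: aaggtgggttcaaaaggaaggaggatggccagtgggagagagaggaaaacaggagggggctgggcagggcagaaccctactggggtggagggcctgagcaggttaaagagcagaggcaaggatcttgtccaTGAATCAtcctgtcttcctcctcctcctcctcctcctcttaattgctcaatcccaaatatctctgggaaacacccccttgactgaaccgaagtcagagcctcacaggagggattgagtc
Dmkn: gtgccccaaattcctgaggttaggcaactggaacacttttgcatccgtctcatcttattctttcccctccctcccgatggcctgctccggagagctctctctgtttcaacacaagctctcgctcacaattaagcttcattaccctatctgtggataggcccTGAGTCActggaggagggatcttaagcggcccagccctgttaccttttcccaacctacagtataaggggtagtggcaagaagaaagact
Krtdap: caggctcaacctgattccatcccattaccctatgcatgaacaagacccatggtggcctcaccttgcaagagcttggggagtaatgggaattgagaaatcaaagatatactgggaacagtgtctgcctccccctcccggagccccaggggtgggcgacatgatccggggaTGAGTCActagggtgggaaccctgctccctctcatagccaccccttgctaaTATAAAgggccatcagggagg
The genes were spread unevenly over members. All 3 were found in 119 of 609 members (19.5%, 16.5 to 22.9) and 44 of 1798 other cells (2.45%) at day 2, and in 88 of 655 (13.4%, 10.9 to 16.3) and 73 of 3155 (2.31%) at day 4. Among members with Dmkn, 120 of 180 (66.7%) had Krtdap and 178 (98.9%) had Sbsn at day 2, against 46 (10.7%) and 211 (49.2%) of the 429 members without Dmkn. At day 4 the numbers were 89 (61.8%) and 138 (95.8%) of 144, against 82 (16.0%) and 288 (56.4%) of 511. Sbsn was found in 63.9% of members at day 2 and 65.04% at day 4, Dmkn in 29.6% and 22.0%, and Krtdap in 27.3% and 26.1%.

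At day 4 a further group of low genes stood at the top. Mrgprg, an orphan receptor of the Mas-related family, was at 117 CPM in members and 6.31 in other cells (18.6-fold, 15.5 to 22.3) and came from 92 of 655 members (14.0%). Cldn11, a tight junction protein, was at 53.0 against 4.24 CPM (12.5-fold), Dact2, a binding partner of Dishevelled, at 63.5 against 6.81 (9.33-fold), and Gpr1, a chemerin receptor, at 85.5 against 9.60 (8.91-fold). Smpd3, a neutral sphingomyelinase, was 8.25-fold, Arl4d, a small GTPase relative, 7.37-fold, Opcml, a cell adhesion protein, 7.22-fold and Aif1l 6.59-fold higher. Gpr1, Arl4d, Opcml and Aif1l were also called higher at day 2, whereas Cldn11, Dact2 and Smpd3 were under 20 CPM then.

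**Figure D3:**
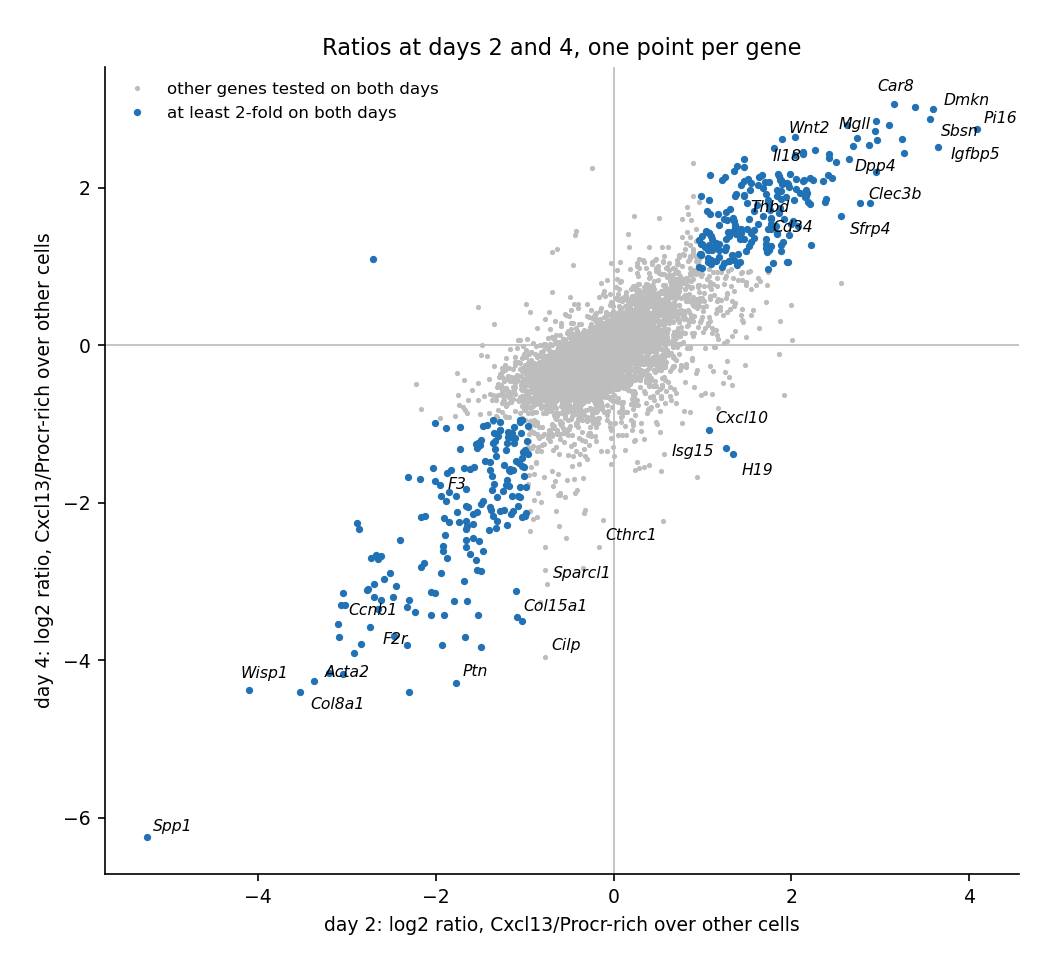
Log2 ratio of Cxcl13/Procr-rich to other cells at day 2 (x axis) and day 4 (y axis) for the 5059 genes tested on both days, 1 point a gene, with a prior of 1 CPM. Of the 387 genes at least 2-fold on both days (blue), most lie in the upper right or lower left, and Cxcl10, Isg15 and H19 lie lower right.

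Of the genes higher in members, 203 were higher on both days (61.5% of the day 2 set and 57.2% of the day 4 set), and 180 were lower on both days (36.7% and 40.9%). The 2 days share no cells but come from the same rule, so this count describes the members. The 2 libraries share 11 barcodes, of which 1 was a member in both.

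Of the clotting genes around Procr, thrombomodulin was higher in members on both days, and the thrombin receptor gene F2r and the tissue factor gene F3 were lower. Thbd was at 223 CPM in members and 51.2 in other cells at day 2 (4.35-fold, 4.02 to 4.71) and at 362 and 94.3 at day 4 (3.84-fold). F2r, the thrombin receptor PAR1, was at 3.30 and 27.7 CPM (8.40-fold lower, 5.21 to 14.5) and at 3.84 and 56.8 (14.8-fold lower). F3, tissue factor, the trigger of clotting, was at 37.9 and 148 CPM (3.91-fold lower) and at 40.7 and 156 (3.83-fold lower). At day 4 Tfpi2, a protease inhibitor, was 3.77-fold lower and F2rl1, the receptor PAR2, 14.4-fold lower from 12 counts. The list as a whole had 1 of 14 genes higher and 3 lower at day 2, against 6.06% higher and 8.99% lower over all genes tested. At day 4 it had 1 of 15 higher and 5 lower, against 6.35% and 7.88%. The share higher was thus close to that over all genes, and Thbd was the 1 gene called higher. Pros1, the cofactor protein S, was at 119 against 166 CPM and 95.2 against 172, and Tfpi at 49.3 against 82.3 and 43.5 against 68.7, all short of 2-fold. Plat, tissue plasminogen activator, was at 184 against 108 CPM and at 387 against 461, without a 2-fold difference.

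Chemokines other than Cxcl13 were called on both sides on each day. At day 2 Ccl2, which draws monocytes, was at 610 CPM in members and 1762 in other cells (2.89-fold lower), Cxcl5, which draws neutrophils, at 80.4 and 445 (5.53-fold lower, with 37.2% of the members' counts from 1 cell) and Cxcl14 at 53.98 and 157 (2.90-fold lower). Ccl8 went the other way, at 335 and 91.1 CPM (3.68-fold higher, 3.45 to 3.91), but was at 230 and 248 at day 4. At day 4 Cxcl1, a neutrophil chemokine, was at 593 and 260 CPM (2.28-fold higher) after 1274 and 2065 at day 2, while Ccl2 was at 419 and 299. Cxcl14 was lower again at day 4, at 35.3 and 203 CPM (5.73-fold), as were Cxcl16 at 18.2 and 81.5 (4.48-fold) and Cxcl9 at 36.6 and 116 (3.16-fold, with 52.4% of the members' counts from 1 cell). Of 12 chemokine genes tested a day, 2 were higher and 3 lower at day 2, and 2 higher and 4 lower at day 4. The shares over all genes tested were 6.06% higher and 8.99% lower at day 2, and 6.35% and 7.88% at day 4. A list of lymphoid stroma and non-canonical NF-kB genes, with which Cxcl13 is classed, had no gene higher on either day, with 1 of 7 lower at day 2 and 2 of 7 at day 4. In that list Vcam1, an adhesion molecule of lymphoid stroma, was at 46.6 against 158 CPM (3.40-fold lower) and 29.96 against 145 (4.85-fold lower), Icam1 was 2.28-fold lower at day 4, and Ccl19, a T cell chemokine with near copies in the mouse genome, was at 20.8 against 11.5 and 17.7 against 24.9. Cxcl12, the most abundant of these, was at 683 against 1081 CPM and 508 against 953.

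Of secreted growth factors and cytokines, members had more Wnt2, Pgf and Fgf2 and less Wisp1, Wisp2, Angpt1, Angptl4 and, at day 2, Il6. Wnt2, a Wnt ligand, was at 51.3 against 13.02 CPM at day 2 (3.94-fold, 3.34 to 4.63) and 133 against 20.9 at day 4 (6.37-fold). Pgf, placental growth factor, was at 23.7 against 4.30 CPM (5.50-fold) and 58.4 against 23.6 (2.47-fold), and Fgf2 at 30.5 against 8.38 (3.64-fold) and 56.6 against 12.7 (4.44-fold). Rspo3, an enhancer of Wnt signalling, was at 21.4 against 5.51 CPM at day 2 (3.88-fold) but at 7.68 against 6.81 at day 4. Bmp2 was at 52.2 against 9.64 CPM at day 4 (5.42-fold) and at 16.5 against 7.47 at day 2, under the 20 CPM limit. The Wnt-induced matricellular genes were lower, Wisp2 at 164 against 594 CPM (3.63-fold) and 61.5 against 227 (3.69-fold) and Wisp1 at 3.84 against 99.9 at day 4 (26.0-fold). Il6 was at 171 against 386 CPM at day 2 (2.26-fold lower) and 80.4 against 82.9 at day 4. Angpt1, a ligand of the receptor Tie2, was 2.78-fold and 3.40-fold lower and Angptl4, an inhibitor of lipoprotein lipase, 2.33-fold and 2.25-fold lower. Kitl, stem cell factor, was 2.74-fold lower at day 2, and Angptl1 was at 100.1 against 434 CPM at day 4 (4.34-fold lower). The Wnt list had 4 of 8 higher and 2 lower at day 2 and 3 of 9 higher and 3 lower at day 4. The angiogenic list had 2 of 9 higher and 3 lower and then 3 of 8 higher and 3 lower. Beside these, 6.06% of all genes tested were higher and 8.99% lower at day 2, and 6.35% and 7.88% at day 4.

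Complement genes and inhibitors of proteases were on the higher side. C3, the central complement protein, was at 642 against 124 CPM at day 2 (5.16-fold) and 993 against 233 at day 4 (4.26-fold). Cd55, which protects cells from complement, was at 251 against 46.2 CPM (5.44-fold) and 501 against 111 (4.50-fold), and C4b, which has a near copy in the genome, at 97.3 against 12.3 (7.93-fold) and 164 against 46.2 (3.55-fold). Of the complement list 5 of 9 genes were higher and none lower at day 2, and 3 of 10 higher and 2 lower at day 4. All genes tested had 6.06% higher and 8.99% lower at day 2, and 6.35% and 7.88% at day 4. Timp2 and Timp3, inhibitors of metalloproteinases, were at 398 against 88.9 CPM (4.48-fold) and 195 against 53.9 (3.62-fold) at day 2, and at 1004 against 272 (3.69-fold) and 471 against 119 (3.96-fold) at day 4. Timp1, of the same family, was lower, at 963 against 1811 CPM and at 222 against 1032 (4.65-fold lower). Has1, a hyaluronan synthase, was at 691 against 278 CPM (2.48-fold) and 678 against 203 (3.33-fold).

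Calls among interferon-induced genes were on the higher side at day 2 and on the lower side at day 4, but not for every gene. At day 2, 6 of 15 tested were higher in members and none lower (median log2 ratio 0.70), and at day 4 none of 19 were higher and 6 were lower (median -0.61). That the days differ was not tested. Isg15, a ubiquitin-like protein, was at 54.2 CPM in members and 22.0 in other cells at day 2 (2.47-fold higher, 2.13 to 2.85). At day 4 it was at 130 and 324 CPM (2.48-fold lower, 2.27 to 2.72). With cells thinned to equal depth, Isg15 was found at day 2 in 6.24% of members (4.45 to 8.46). In other cells the share was 4.39% (3.49 to 5.45), with overlapping intervals. At day 4 the shares were 15.4% and 33.2%. Ifit1, which binds foreign RNA, was at 57.3 and 14.4 CPM (3.97-fold higher) and at 74.5 and 116. Ifi27l2a, the most abundant of the list, was above other cells on both days, at 1370 and 231 CPM (5.92-fold higher) and at 2456 and 1421 (1.73-fold, not called), as was Usp18, a protease that removes Isg15, at 32.4 and 9.21 and at 83.7 and 56.7. The summed level of the list was 2139 CPM in members and 706 in other cells at day 2 and 4001 and 3835 at day 4. Irf7, a transcription factor of the response, was at 46.4 and 18.9 CPM (2.46-fold higher) and at 184 and 234, and neither Ifit1 nor Irf7 was called lower at day 4. From day 2 to day 4 Isg15, Ifit1 and Irf7 were 2.41-fold, 1.30-fold and 3.96-fold higher in members and 14.7-fold, 8.06-fold and 12.4-fold higher in other cells. With members taken by Cxcl13 alone (70 cells at day 4) the day 4 log2 ratio of Isg15 was 0.13, and without cells holding 2 or more G2/M UMIs its day 2 ratio was 0.86.

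**Figure D4:**
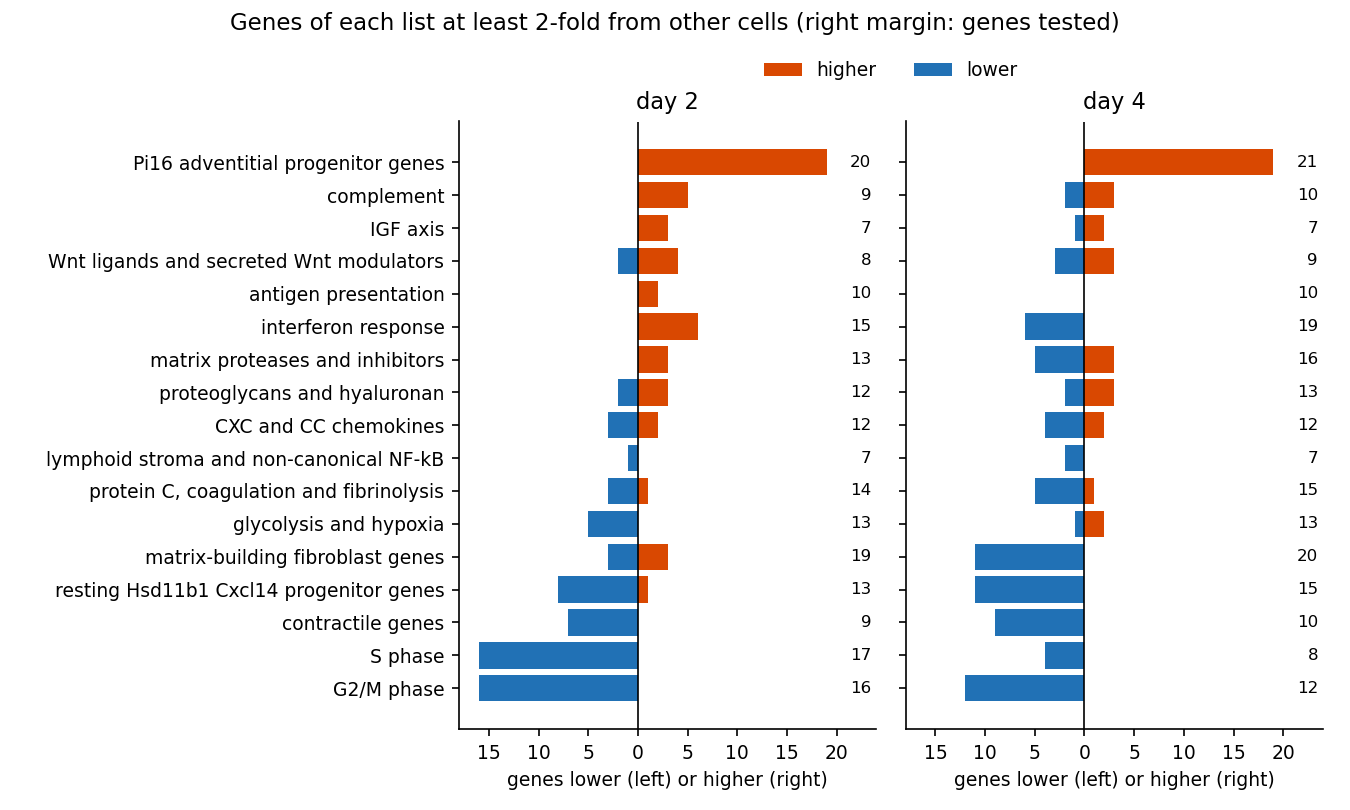
Number of genes of 17 lists at least 2-fold higher (orange, right) or lower (blue, left) in Cxcl13/Procr-rich than in other cells at day 2 and day 4, with the number tested at the right margin. The adventitial list lies on the higher side on both days, the cell cycle and contractile lists on the lower side, and the interferon list has 6 genes higher at day 2 and 6 lower at day 4.

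Members showed few transcripts of the cell cycle. All 16 tested G2/M genes and 16 of 17 S phase genes were lower at day 2, as were all 12 and 4 of 8 at day 4. At 2500 UMIs a cell, 6.404% of members and 33.7% of other cells had at least 2 G2/M UMIs at day 2 (17.4% and 55.2% before thinning), and 0.772% and 7.33% at day 4 (2.75% and 14.3%). Ccnb1, cyclin B1, was at 9.32 against 87.8 CPM at day 2 (9.42-fold lower) and Rrm2, a subunit of ribonucleotide reductase, at 18.8 against 144 (7.65-fold lower). Leaving out cells with at least 2 G2/M UMIs left 503 members and 806 other cells at day 2, with 169 genes higher in members in place of 330 and 198 lower in place of 490. Under that choice the day 2 log2 ratios were 2.99 for Pi16 (4.09 with all cells), 2.91 for Sbsn (3.56), 2.59 for Dpp4 (3.27), 1.30 for Sfrp4 (2.56) and 0.98 for Plac8 (1.99), so that Plac8 was no longer 2-fold higher. Depth moved the same way as cycling, since the other cells were deeper, and the part of each was not tested.

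Contractile genes were lower in members on both days, and matrix-building genes were lower at day 4 and on neither side as a list at day 2. Acta2, smooth muscle actin, was at 14.0 against 154 CPM at day 2 (11.01-fold lower, 8.73 to 14.1) and 13.8 against 285 at day 4 (20.6-fold lower, 15.8 to 27.5). Spp1, osteopontin, had the lowest ratio on both days, at 6.80 against 297 CPM (43.7-fold lower, from 11 members of which 1 gave 31.4% of the counts) and 31.8 against 2485 (78.3-fold lower, 65.7 to 94.1). Col8a1, a short-chain collagen, was at 20.6 against 249 CPM (12.1-fold lower) and 34.3 against 749 (21.8-fold lower). Of contractile genes 7 of 9 and 9 of 10 were lower. Of matrix-building fibroblast genes 3 of 19 were higher and 3 lower at day 2 (median log2 ratio 0.35), and none of 20 higher and 11 lower at day 4 (median -1.14). Postn, periostin, was at 437 against 297 CPM at day 2 and 645 against 3034 at day 4 (4.70-fold lower), and Col1a1, a chain of type I collagen, at 1494 against 1175 and 3491 against 7945 (2.28-fold lower). Cthrc1, a secreted protein of activated fibroblasts, was at 232 against 260 CPM and 183 against 1082 (5.92-fold lower). The 3 called higher at day 2 were Fn1, fibronectin, at 1395 against 495 CPM (2.82-fold), Aspn, the proteoglycan asporin, at 924 against 395 (2.34-fold), and Mfap5, a microfibril protein, at 2468 against 1227 (2.01-fold). At day 4 Wisp1, Ctsc, Ddit4l, Fibin, Ptn, Tnc and Cilp were each between 15.7-fold and 26.0-fold lower, with 61.4% of the Tnc counts of members from 1 cell.

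Genes of the resting Hsd11b1 and Cxcl14 progenitors, another fibroblast group of muscle, were also lower. Of this list 8 of 13 were lower and 1 higher at day 2 (median log2 ratio -1.13), and 11 of 15 lower and none higher at day 4 (median -2.10). Smoc2, a matricellular calcium-binding protein, was at 45.4 against 177 CPM (3.90-fold lower) and 45.8 against 348 (7.59-fold lower), and Col15a1, a basement membrane collagen, was 2.18-fold lower at day 2 and at 17.7 against 203 CPM at day 4 (11.5-fold lower). Members thus stood on the high side of the adventitial programme and on the low side of this one.

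Between day 2 and day 4 members differed less than the other cells did. Of 5225 genes tested in members 168 were higher at day 4 (3.22%) and 90 lower (1.72%), and in other cells 437 of 5582 were higher (7.83%) and 255 lower (4.57%). The 2 comparisons come from the same pair of libraries and sum different numbers of cells. Mrgprg was at 1.75 CPM in members at day 2, from 9 counts, and 117 at day 4 (67.0-fold, 35.0 to 147). In other cells it was at 0 CPM at day 2 and 6.31 at day 4, so it was also higher there. Daglb, which makes the endocannabinoid 2-arachidonoylglycerol, was at 31.5 and 143 CPM (4.54-fold, against 1.70-fold in other cells), and Stmn4, a microtubule regulator, at 41.2 and 165 (4.01-fold, against 3.38-fold). Pla1a, a phosphatidylserine phospholipase, was 3.86-fold higher (other cells 2.89-fold), Pamr1, a muscle-associated peptidase relative, 3.02-fold (4.80-fold) and Tek, the receptor Tie2, 3.13-fold (3.15-fold). Pi16 was 2.99-fold higher in members, from 2733 to 8160 CPM, and 7.62-fold higher in other cells. Of the adventitial list 9 of 21 genes were higher at day 4 in members (median log2 ratio 0.91) and 10 of 18 in other cells (1.15), against medians of 0.03 and -0.01 over all genes.

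The 12 lowest ranked ratios of day 4 to day 2 in members held 4 genes of sterol synthesis, for which no list was fixed. Fdps, farnesyl diphosphate synthase, was at 323 CPM at day 2 and 35.3 at day 4 (9.15-fold lower, and 7.79-fold in other cells). Idi1, Hmgcs1 and Msmo1, of the same pathway, were 6.56-fold, 4.86-fold and 3.85-fold lower, against 10.3-fold, 4.99-fold and 6.70-fold in other cells. Prg4, lubricin, was at 2330 and 313 CPM (7.44-fold lower, 4.26-fold in other cells), Timp1 at 963 and 222 (4.34-fold lower, 1.75-fold) and S100a4 5.06-fold lower (7.39-fold). Inmt, a methyltransferase, was 3.11-fold lower in members and 1.26-fold higher in other cells.

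Fewer matrix and interferon genes were higher at day 4 in members than in other cells. Of matrix-building genes 2 of 17 were higher at day 4 in members (median log2 ratio 0.51) and 19 of 20 in other cells (1.74). Postn was 1.48-fold higher in members and 10.2-fold in other cells, and Col1a1 2.34-fold and 6.76-fold. Of interferon genes 8 of 18 were higher and 1 lower in members (median 0.93), and 17 of 18 higher in other cells (2.56). Irf7 was 3.96-fold and 12.4-fold higher. Of antigen presentation genes 2 of 10 and 8 of 10 were higher, and B2m, the light chain of class I molecules, was 2.10-fold and 4.30-fold higher. The inflammatory chemokine Cxcl1 was 2.15-fold lower at day 4 in members and 7.94-fold lower in other cells, and Ccl2 1.46-fold and 5.90-fold lower. The difference of these ratios has no replicate check.

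**Figure D5:**
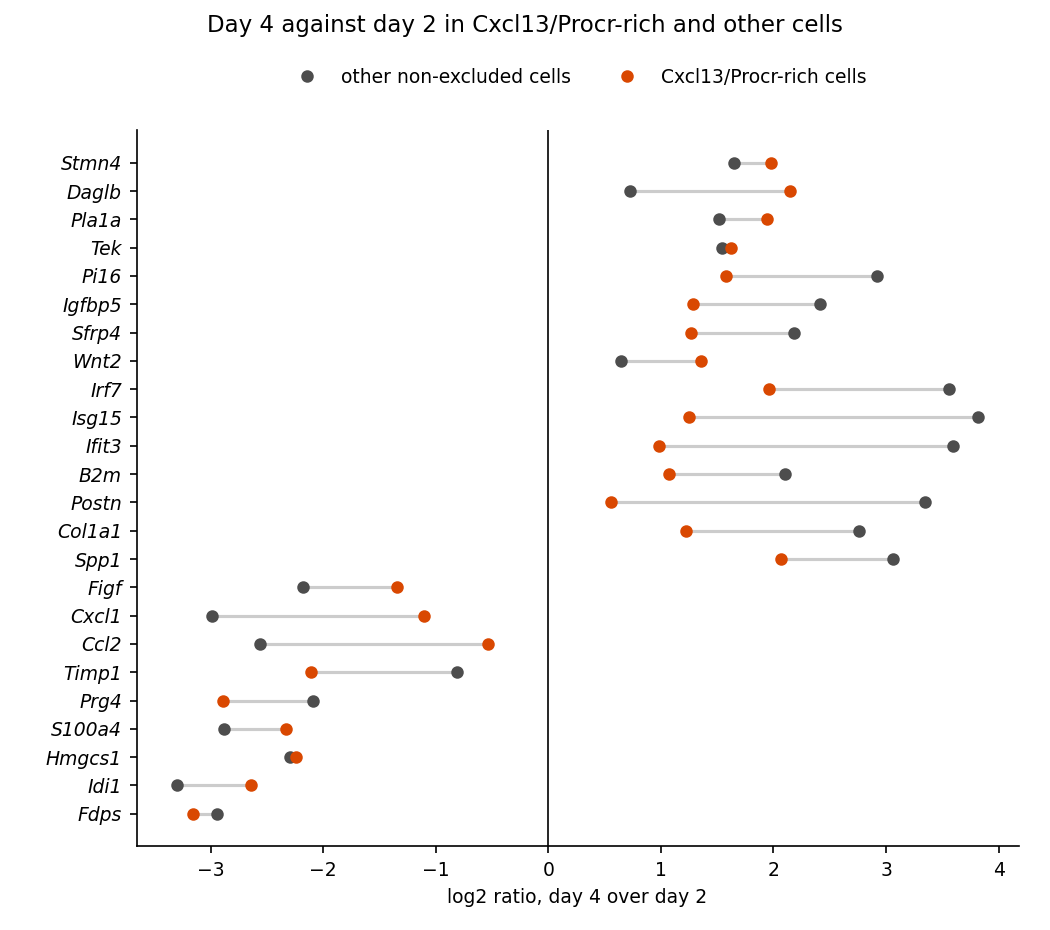
Log2 ratio of day 4 to day 2 for 24 named genes in Cxcl13/Procr-rich cells (orange) and other non-excluded cells (grey), 1 library a day with no error bar. The interferon and matrix genes and Cxcl1 and Ccl2 lie farther from 0 in other cells, while Daglb, Wnt2, Prg4 and Timp1 lie farther from 0 in members.

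Members with Cxcl13 differed from those without it. This split, at least 3 Cxcl13 UMIs (170 members at day 2, 75 at day 4) against none (376 and 502), was chosen after the values were seen and is a description. At day 2, 70 of 5138 genes were higher in Cxcl13-rich members (1.36%) and 55 lower (1.07%), and at day 4, 294 of 5423 higher (5.42%) and 170 lower (3.13%). Procr was at 737 CPM in the former and 1057 in the latter at day 2 and at 363 and 927 at day 4, a difference that the rule helps to set, since a cell without Cxcl13 needs Procr to enter.

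Genes of lymphoid stroma were higher in the Cxcl13-rich members. Cxcl12, a chemokine that retains lymphocytes and progenitors, was at 1246 CPM with Cxcl13 and 417 without it at day 2 (2.99-fold, 2.78 to 3.21) and at 1521 and 309 at day 4 (4.92-fold, 4.46 to 5.42). Ccl19 was at 52.2 and 4.83 CPM (10.8-fold, 6.16 to 20.2) and at 49.3 and 7.12 (6.92-fold), from 36 and 12 members, and Vcam1 at 78.6 and 31.9 (2.46-fold) and at 98.5 and 17.6 (5.59-fold). In the lymphoid stroma list 3 of 8 genes were higher at day 2 and 4 of 8 at day 4, none lower. Of chemokines 3 of 11 and 7 of 13 were higher. Mmp3, stromelysin, was at 311 and 61.2 CPM (5.08-fold) and at 414 and 42.4 (9.77-fold), and Tmem176a, a membrane protein, at 236 and 78.3 (3.02-fold) and at 382 and 15.6 (24.5-fold). Some values rest on few cells: Cxcl5 at day 2 took 46.2% of its counts from 1 cell, Cxcl9 at day 4 64.1%, Saa3 47.3% and Cd74 92.5%. Leukocyte markers summed to 27.7 CPM with Cxcl13 and 34.8 without it at day 2, and to 53.2 and 26.8 at day 4. At day 4 myogenic markers summed to 84.7 CPM with Cxcl13, where 1 of 75 cells had at least 2 UMIs of them, and 16.3 without it, tenocyte markers to 70.9 and 41.0, and mural markers to 88.7 and 52.9. The part of these transcripts in the differences was not tested.

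The adventitial and epidermal-type genes leaned to members without Cxcl13. Dmkn was at 67.3 CPM in Cxcl13-rich members and 304 in those without it at day 2 (4.52-fold lower, 3.68 to 5.598) and at 9.85, from 5 counts, and 193 at day 4 (19.6-fold lower, 8.35 to 60.6). Krtdap was at 53.5 and 145 CPM (2.71-fold lower) and at 25.6 and 179 (6.999-fold lower), and Sfrp4 at 77.9 and 284 (3.65-fold lower) and at 416 and 547. Of the adventitial list 5 of 20 genes were lower at day 2 and 5 of 21 at day 4 and none higher. Of the resting Hsd11b1 and Cxcl14 list 4 of 14 and 11 of 13 were higher. Pi16 was found, at 2500 UMIs a cell, in 69.4% of Cxcl13-rich members and 83.0% of members without Cxcl13 at day 2, and in 81.3% and 97.8% at day 4. The S phase list had 9 of 12 genes and the G2/M list 5 of 8 higher in Cxcl13-rich members at day 2, none lower, with 44.1% of Birc5 counts from 1 cell. At 2500 UMIs a cell, 7.65% of Cxcl13-rich members and 6.38% of members without Cxcl13 had at least 2 G2/M UMIs at day 2, and 8.24% (4.58 to 13.4) and 1.86% (0.752 to 3.80) had at least 3 S phase UMIs (32.9% and 22.9% before thinning).

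Taking members by Cxcl13 alone, 154 cells at day 2 and 70 at day 4 against all remaining cells, kept Pi16, Dpp4 and Sbsn on the higher side, while Dmkn and Krtdap were lower at day 4. The log2 ratio of Pi16 was 1.98 at day 2 and 1.29 at day 4, that of Dpp4 was 1.54 and 1.31, and that of Sbsn was 1.33 and 0.84. For Dmkn it was 0.30 and -1.70, for Krtdap 0.53 and -0.45, and Bmp2 turned to -0.75 at day 4. Cxcl12 turned the other way, to 0.48 and 0.53 from -0.66 and -0.91 in all members. The remaining cells here include the members chosen by Procr only. These ratios therefore have a different comparison set from those of all members, and the part of that change in the reversals was not tested. Cxcl13-rich members also differed more between the days, with 407 of 5403 genes higher at day 4 (7.53%) and 197 lower (3.65%), against 152 of 5249 (2.9%) and 103 (1.96%) in members without Cxcl13. Of interferon genes 16 of 19 were higher at day 4 in the former and 5 of 18, with 1 lower, in the latter. The former are 170 and 75 cells, so their counts are the noisier.

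Clusters made without Cxcl13 and Procr placed most members together on each day. At day 2 a cluster led by Pi16, Igfbp5, Sbsn and Dmkn held 327 members (53.7%), which were 84.1% of its 389 cells. A cluster led by Plac8 and Thbs2 held 16.9% of members, which were 52.8% of its cells. A small cluster of 52 cells led by Ccl19, C4b and Apoe was 59.6% members and held 12.4% of the Cxcl13-rich ones but 1.86% of those without Cxcl13. At day 4 a cluster led by Krtdap, Mrgprg, Dmkn and Sbsn held 382 members (58.3%), 60.5% of its 631 cells, and 1 led by Akr1c18, Krt19 and Wnt2 held 14.5%, which were 95 of its 190 cells. Of the Cxcl13-rich members 45.9% at day 2 and 40.0% at day 4 lay in the largest of these clusters, against 57.2% and 62.5% of members without Cxcl13. Clusters bear no name here beyond their leading genes.

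By the same rule, members were also present outside days 2 and 4. They were 235 of 1900 non-excluded quiescent cells (12.4%), 257 of 4536 from day 1 (5.67%) and 599 of 2424 from day 14 (24.7%). With cells thinned to 2500 UMIs and counted at 1 or more UMIs, the shares from quiescent to day 14 were 31.8%, 16.2%, 34.6%, 28.8% and 39.8%. Thinning left out 390, 65, 0, 63 and 398 cells as too shallow, so the quiescent and day 14 shares are over their deeper cells. Thus day 1 was lowest on both counts, and the place of day 2 against day 14 depended on the count. So did that of quiescent against day 4, at 12.4% and 17.2% by the rule. When thinned, the shares were 31.8% (29.4 to 34.2) in quiescent and 28.8% (27.3 to 30.25) at day 4, with overlapping intervals. In the order of these libraries, Cxcl13 in members was at 129, 172, 739, 200 and 136 CPM, highest at day 2. Pi16 in members was at 5623, 2110, 2733, 8160 and 7664 CPM, lowest at day 1, and it was above its level in other cells in all 5 libraries. Sbsn in members stayed between 455 and 634 CPM in the 5 libraries, while in other cells it ran from 47.1 to 151. Mrgprg in members was at 14.5, 1.43, 1.75, 117 and 5.24 CPM, so that its day 4 level was matched in no other library. Plac8 in members was at 128 and 149 CPM in the quiescent and day 1 libraries, 299 and 342 at days 2 and 4 and 102 at day 14.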

How the data were processed

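All 5 droplet libraries of polyadenylated RNA from sorted tdTomato-positive mouse muscle cells (quiescent, and days 1, 2, 4 and 14 after notexin) were available, and days 2 and 4 were compared. The deposited matrices hold UMI counts per gene and cell barcode, made by the authors with Cell Ranger on mm10, per the submitters' processing notes (versions not given in the sources used here). Day 2 held 2556 and day 4 held 4140 barcodes, with 32843041 and 32283940 UMIs. Cells with at least 500 genes and at most 10% mitochondrial UMIs were kept (2549 and 4107), and the rule given in the report was then applied. The members and the gene lists were chosen with earlier results of these data known.

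Counts were summed over the cells of a set and scaled to CPM. Ratios have exact conditional binomial 95% intervals and shares Clopper-Pearson 95% intervals, both covering counting error only. Reads without replicate libraries give no test, so no p-value was computed. A gene was tested when it had at least 20 CPM in either set and was called at a 2-fold ratio; Cxcl13 and Procr were left out of calls. Log2 ratios used a prior of 1 CPM. Thinning drew 2500 UMIs a cell without replacement, leaving out 7 members and 56 other cells at day 4. Clusters used 2000 variable genes without Cxcl13 and Procr, 30 principal components, 15 neighbours and Leiden resolution 1.0. Scrublet called 2 and 3 cells, too few to have worked, so no doublet was removed. The highest-scored cells at the expected doublet rate held 14 members (2.30%) at day 2 and 7 (1.07%) at day 4.

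Named genes were, each day, the 15 highest and 10 lowest ratios at 50 CPM or more, for day 4 against day 2 the 12 highest and 12 lowest at 100 CPM or more, up to 5 genes a list, and the members of the short lists on protein C, lymphoid stroma, growth factors and interleukins. Mitochondrial, ribosomal, haemoglobin and unnamed genes were left out of the ranking, and not every gene so chosen is described; a few are not reported here. Genes given as examples of few-cell values in the Cxcl13 split (Cd74, Birc5) were chosen after their values were seen. Alternatives were TMM (edgeR 4.0.16) and DESeq2 1.42.0 scaling factors, other minimum levels, thinning, equal weight per cell, other member rules, and leaving out cycling cells or likely doublets; cells with at least 7500 UMIs and members with both genes were added after seeing the data. The calculations were tested on simulated data. Tools were Python 3.11.15, scanpy 1.11.5, numpy 2.4.6, scipy 1.17.1, matplotlib 3.10.9 and R 4.3.3.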

Additional observations from a re-analysis of the deposited data

Results flagged for a closer look

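Several named genes were on opposite sides in Cxcl13/Procr-rich and other cells at the 2 days, at least 2-fold each time, and the difference between the days was not tested. Isg15 had a log2 ratio of 1.26 at day 2 and -1.30 at day 4. Cxcl10, an interferon-induced chemokine, had 1.07 and -1.07. H19, an imprinted long noncoding RNA, had 1.35 and -1.39, with 85.2 CPM in members and 32.9 in other cells at day 2 and 165 and 432 at day 4. Saa3, an acute-phase protein, went the other way, with -2.71 and 1.1, and its day 4 value in Cxcl13-rich members came from 4 cells. With members taken by Procr alone its day 4 log2 ratio was -4.22. For Isg15 at day 2, thinned shares of members and other cells with it were 6.24% and 4.39%, with overlapping intervals.

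The day 14 library, which enters no comparison of gene calls, held 24.7% cells that met the rule, against 12.4% in the quiescent library. Median UMIs in members were 6131 and 4764, so the libraries differ in depth as well.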

How the results depend on the processing

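No paired analysis was possible because each group is 1 library. TMM and DESeq2 factors kept the direction of all 143 named calls at day 2 and all 156 at day 4, and moved the median gene at day 4 from -0.15 to -0.04 and -0.05 on the log2 scale. When thinned to 2500 UMIs, 34.65% and 28.77% of cells at days 2 and 4 held at least 1 UMI of Cxcl13 or Procr, which is a different rule from that for members. At 6 UMIs and 8 per 10000, members were 15.16% and 6.273% of cells. At 50 CPM, 178 genes were higher and 262 lower at day 2, 215 and 240 at day 4, and 108 and 43 between the days in members. With no minimum beyond 3 counts these were 1360 and 2683, 1281 and 3462, and 983 and 1027. Without cycling cells, 169 were higher and 198 lower at day 2, and the stricter rule gave 846 lower. Members by Cxcl13 alone gave 181 higher at day 2 and, between the days, 442 higher and 194 lower; the last comparison gave 275 higher in cells of at least 7500 UMIs and 276 in members with both genes. The cause was not tested.

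Named genes called at 2-fold that changed side are given as log2 ratios. Without cycling cells, which were chosen by these genes, Aurka (0.002), Birc5 (0.396), Cenpf (0.37), Kif20a (0.002) and Tpx2 (0.37) did so at day 2, Birc5 (0.232), Ccnb1 (0.244), Cdc20 (0.432), Cenpf (0.191) and Tpx2 (0.136) at day 4, and Cdc20 (0.154) between the days. With members by Cxcl13 alone, Spon2 (-0.756) did so at day 2, and at day 4 Anxa8 (-1.584), Bmp2 (-0.751), Cd200 (-0.151), Cxcl14 (0.205), Dmkn (-1.695), Iigp1 (0.31), Isg15 (0.125), Krtdap (-0.451), Nov (-0.446), Tmem176a (0.266), Tmem176b (0.145) and Wisp2 (0.094), and Bmp2 (-0.317) between the days. With both genes required, Anxa8 (-0.02) and Cxcl9 (0.291) did so at day 4, in cells of at least 7500 UMIs Comp (0.324), and with members by Procr alone Saa3 (-4.223 at day 4, -2.949 between the days). Day 4 values by Cxcl13 alone rest on 70 cells. With members by 1 gene alone, the members chosen only by the other gene are among the cells compared with.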

Other observations

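Genes of other lists also differed between the sets. Csf1, which supports macrophages, was at 114 CPM in Cxcl13/Procr-rich cells and 157 in other cells at day 2, and at 102 and 49.7 at day 4 (2.05-fold higher). Atf3, an early stress-response transcription factor, was at 460 and 124 CPM (3.72-fold) and at 649 and 179 (3.63-fold). Adamts5, an aggrecanase, was at 318 and 174 CPM and at 564 and 186 (3.02-fold). Bgn, the proteoglycan biglycan, was at 1145 and 2635 CPM (2.30-fold lower) and at 1178 and 5751 (4.88-fold lower).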
